A study of Homo sapiens with 6 samples.

Results

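The genes described here are the Janus kinases, STAT factors and SOCS inhibitors JAK1, JAK2, TYK2, STAT2, STAT3, STAT5B, STAT6, SOCS1 and SOCS3, which were chosen by name. Of these 9 genes, 8 were measured, each by 1 probe set paired with a single gene symbol, among 18417 genes measured in all. STAT2 had no such probe set and was not analysed here. Expression was read in HCT 116 cells, an established human colorectal carcinoma line, grown in DMEM with fetal bovine serum and taken 48 h after a transient transfection of double-stranded RNA oligonucleotides. There were 3 arrays labelled siChe-1, from cells given an siRNA against Che-1, the product of AATF, and 3 arrays labelled control, from cells given an siRNA against GFP, a protein that these cells do not make. Both groups had therefore received an RNA duplex, no untransfected cells are among the samples, and each siRNA group is of the same single cell line. The study set the groups against each other to find the expression changes that follow depletion of Che-1.

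Cytokine receptors have no kinase of their own and carry Janus kinases on their inner side. When a ligand brings the chains together, the kinases phosphorylate the receptor and then STAT proteins, which pair up, enter the nucleus and bind DNA. Type I and type III interferons act through JAK1 and TYK2 and form ISGF3, a complex that contains STAT2 and IRF9 and binds the interferon-stimulated response element. Other STAT pairs bind the shorter GAS element, and SOCS proteins, which many of these STATs induce, shut the pathway down again.

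The value of a gene is its log2 RMA intensity, a background-corrected and between-array normalised probe brightness. Levels of different genes are not set against each other, because probes differ in brightness. Array medians over the 33297 probe sets lay between 4.95 and 5.05. The targeted gene went against its label: AATF read 8.53, 8.81 and 8.87 in the arrays labelled siChe-1, against 7.55, 7.75 and 7.55 in the arrays labelled control, a difference of 1.12 ± 0.13 on the log2 scale (SE, n = 3 each, limma adjusted p = 0.00122). Groups are therefore named by their labels throughout, and each direction below would turn round if the 2 labels had been swapped. Of the 11 epithelial and carcinoma markers, KRT8 averaged 12.10 in the arrays labelled siChe-1 and 12.48 in those labelled control, while VIL1 read 3.71 and 3.63 and KRT20 4.12 and 4.30. The leukocyte marker PTPRC read 2.46 in the arrays labelled siChe-1 and 2.41 in those labelled control, but another leukocyte gene, TYROBP, read 6.07 and 5.84. Without detection calls in the table, a level at or under about that of TYROBP is not shown to be above background. Among the genes described here this touches JAK2, STAT5B, SOCS1 and SOCS3. That mark is only a rough guide, since 2 fibroblast markers read higher. COL1A1 averaged 7.41 in the arrays labelled siChe-1 and 7.02 in those labelled control, and ACTA2 6.25 and 6.71. In such bulk samples fewer expressing cells and less RNA per cell cannot be told apart. Nothing in the labels tells separate cultures from repeat arrays of 1 culture, so p-values cover only the spread among these arrays, and their number limits the precision.

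Promoter sequences of 4 genes are shown because they hold, or lack, the elements that ISGF3 and other STAT complexes bind: SOCS1, a gene whose level did not pass the test, STAT6, which came nearest to passing, IRF9, the ISGF3 subunit that was lower, and IFIT1, an ISGF3 target that was far lower. The sequences are those of RefSeq on GRCh38.p14 and run from 250 bases before the annotated start of the gene to 50 bases after it, 5′ to 3′ on the strand of the gene. Capitals mark every match to a short form of the interferon-stimulated response element (GAAA, any 2 bases, GAAA) or to the GAS core (TTC, any 3 bases, GAA), on either strand.

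SOCS1, chr16:11256155-11256454, minus strand: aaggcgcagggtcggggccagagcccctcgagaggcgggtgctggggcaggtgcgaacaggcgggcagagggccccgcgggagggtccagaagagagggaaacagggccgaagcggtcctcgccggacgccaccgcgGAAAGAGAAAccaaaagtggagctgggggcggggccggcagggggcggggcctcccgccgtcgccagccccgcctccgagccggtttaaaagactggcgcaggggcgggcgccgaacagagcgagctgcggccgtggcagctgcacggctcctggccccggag
STAT6, chr12:57110240-57110539, minus strand: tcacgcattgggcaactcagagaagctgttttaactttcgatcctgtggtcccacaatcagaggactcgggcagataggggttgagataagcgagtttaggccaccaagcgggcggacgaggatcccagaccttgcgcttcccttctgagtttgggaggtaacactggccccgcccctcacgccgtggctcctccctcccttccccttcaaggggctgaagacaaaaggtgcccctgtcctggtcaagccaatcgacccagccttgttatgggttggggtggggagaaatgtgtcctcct
IRF9, chr14:24161015-24161314, plus strand: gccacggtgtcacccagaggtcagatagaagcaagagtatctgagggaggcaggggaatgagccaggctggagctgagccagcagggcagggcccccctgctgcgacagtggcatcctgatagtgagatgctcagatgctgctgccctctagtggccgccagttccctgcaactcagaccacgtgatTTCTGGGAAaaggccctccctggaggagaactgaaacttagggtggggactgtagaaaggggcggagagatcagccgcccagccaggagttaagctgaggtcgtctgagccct
IFIT1, chr10:89392373-89392672, plus strand: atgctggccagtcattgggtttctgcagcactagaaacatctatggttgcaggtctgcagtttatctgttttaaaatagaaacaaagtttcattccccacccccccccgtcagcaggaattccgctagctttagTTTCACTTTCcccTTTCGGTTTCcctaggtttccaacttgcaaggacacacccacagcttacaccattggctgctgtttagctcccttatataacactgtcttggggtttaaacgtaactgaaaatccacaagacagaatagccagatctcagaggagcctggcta

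In this window SOCS1 held 1 match to the response element, GAAAGAGAAA, which starts 113 bases before the start site. IRF9 held 1 GAS match, TTCTGGGAA, which starts 63 bases before the start site. IFIT1 held 2 response-element matches on the opposite strand, and STAT6 held neither element. Windows were found for all 9 genes, 15 windows in all because several genes have more than 1 start. Only the SOCS1 window held the response element among them, and none of the 15 held the GAS core. Over all 35116 promoter windows, 3.57% held the response element and 7.66% held the GAS core. Of the ISGF3 target list described below, 20 genes had a window, and 15 of these held the response element in at least 1 of their windows. Counted by gene in the same way, 4.38% of all 27305 genes with a window held it. The list was drawn up as targets of the complex that binds this element, so setting these shares side by side is not a test. The GAS core was held by 5 of the same 20 genes, beside 9.38% of all genes with a window. A match is only a run of letters, and a window without one says nothing about sites elsewhere.

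None of the 8 measured genes passed the test. Limma called a gene changed at a Benjamini-Hochberg adjusted p under 0.05 over all 18417 genes, and 3.72% of genes were called, 465 of them (2.52% of all genes) lower and 220 (1.19%) higher in the arrays labelled siChe-1. With array medians centred the split was 680 lower and 170 higher. Beside that background, 0 of 8 does not set these genes apart. At an unadjusted p under 0.05 the count was 1 of 8, STAT6, where the background was 17.7%. The measured differences ran between -0.29 for STAT6 and 0.12 for STAT5B on the log2 scale, with 6 below 0 and 2 above. Their median was -0.074, beside 0.0051 over all genes, and their median absolute difference was 0.13, beside 0.15 over all genes.

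**Figure D1:**
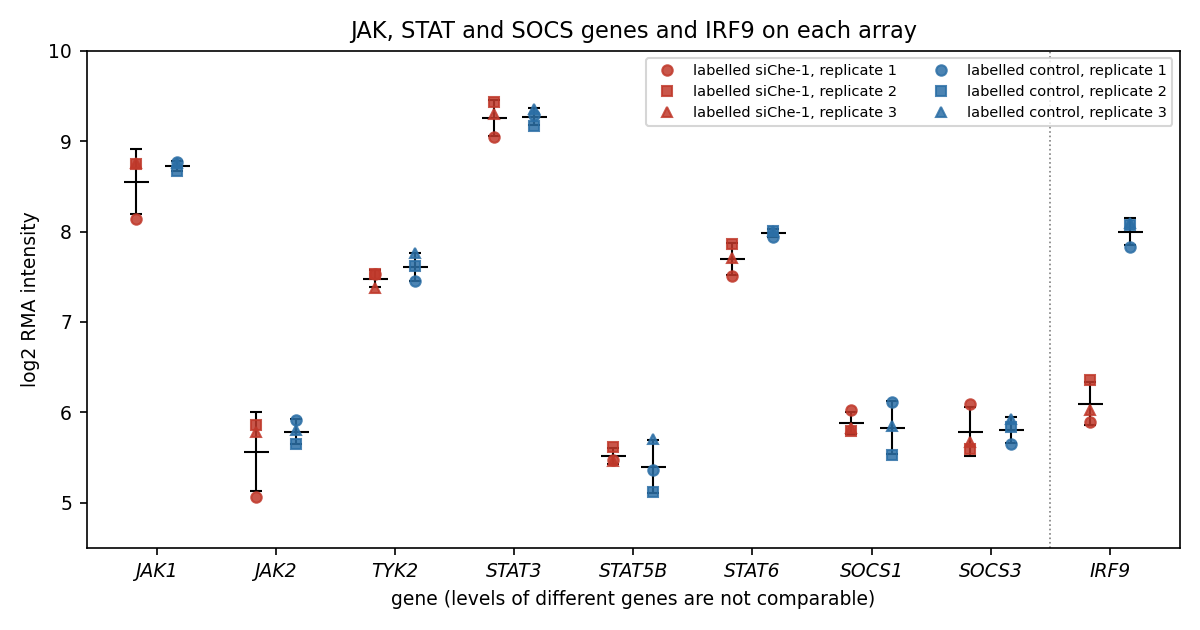
Log2 RMA intensity (y axis) of the 8 measured genes and of IRF9 (x axis) on each array, with red symbols for the arrays labelled siChe-1 and blue for those labelled control, symbol shape for the replicate number, and bars for mean and SD (n = 3 each). The groups overlap for every one of the 8 genes but STAT6, and those of IRF9 lie far apart.

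JAK1 is the kinase shared by the receptors of all interferons and of the gp130 family. It read 8.13, 8.75 and 8.76 in the arrays labelled siChe-1, against 8.77, 8.67 and 8.75 in the arrays labelled control. Replicate 1 of siChe-1 was low, and the other 2 lay within the range of the controls. The difference was -0.18 ± 0.17 (log2, SE, limma adjusted p = 0.649), with a 95% interval that ran from 1.48-fold lower to 1.15-fold higher.

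JAK2 serves the receptors of interferon-gamma, growth hormone, erythropoietin and others. It read 5.06, 5.85 and 5.78 in the arrays labelled siChe-1, against 5.92, 5.64 and 5.80 in the arrays labelled control. The same siChe-1 replicate 1 was the low one, and the groups overlapped. The difference was -0.22 ± 0.20 (log2, SE, limma adjusted p = 0.627), and its interval ran from 1.58-fold lower to 1.17-fold higher, the widest of the 8.

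TYK2 pairs with JAK1 on the receptors of type I and type III interferons. It read 7.53, 7.54 and 7.37 in the arrays labelled siChe-1, against 7.45, 7.62 and 7.76 in the arrays labelled control. The groups overlapped through the low control replicate 1. The difference was -0.13 ± 0.13 (log2, SE, limma adjusted p = 0.660), with an interval from 1.33-fold lower to 1.11-fold higher.

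STAT3 carries signals of IL-6 and its relatives and is often active in colorectal cancer. It read 9.04, 9.43 and 9.30 in the arrays labelled siChe-1, against 9.29, 9.17 and 9.35 in the arrays labelled control, and the siChe-1 values lay on both sides of the control range. Its difference was the smallest of the 8, at -0.012 ± 0.134 (log2, SE, limma adjusted p = 0.975), and the interval ran from 1.24-fold lower to 1.22-fold higher.

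STAT5B relays signals of growth hormone, prolactin and several interleukins. It read 5.48, 5.62 and 5.46 in the arrays labelled siChe-1, against 5.37, 5.12 and 5.71 in the arrays labelled control. The controls were the more scattered group and enclosed the siChe-1 values. The difference was 0.12 ± 0.16 (log2, SE, limma adjusted p = 0.752), with an interval from 1.17-fold lower to 1.38-fold higher.

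STAT6 is the factor of IL-4 and IL-13 signalling. It read 7.51, 7.87 and 7.71 in the arrays labelled siChe-1, against 7.94, 8.01 and 8.01 in the arrays labelled control. All 3 siChe-1 values were below all 3 control values, as they were in 13.3% of all genes, and 24.0% of genes had groups that did not overlap in either direction. The difference was -0.29 ± 0.13 (log2, SE), or 1.22-fold lower, and it did not pass (limma adjusted p = 0.273), with an interval from 1.49-fold lower to just under no difference. Permuting the 6 arrays exactly gave a two-sided p = 0.1, which no split of 3 against 3 can go below.

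SOCS1 binds Janus kinases and blocks them, and it is an interferon-induced gene in many cells. It read 6.02, 5.79 and 5.82 in the arrays labelled siChe-1, against 6.11, 5.52 and 5.85 in the arrays labelled control. The control values enclosed those of siChe-1. The difference was 0.052 ± 0.159 (log2, SE, limma adjusted p = 0.908), and the interval ran from 1.23-fold lower to 1.32-fold higher.

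SOCS3 binds gp130 and the kinases beside it and is the usual feedback inhibitor of STAT3. It read 6.09, 5.59 and 5.67 in the arrays labelled siChe-1, against 5.65, 5.84 and 5.93 in the arrays labelled control. Replicate 1 of siChe-1 was the highest of the 6 and replicate 2 the lowest. The difference was -0.019 ± 0.155 (log2, SE, limma adjusted p = 0.965), with an interval from 1.29-fold lower to 1.25-fold higher.

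In the order of their differences, STAT6, JAK2, JAK1, TYK2, SOCS3, STAT3, SOCS1 and STAT5B, the 95% interval of each gene overlapped that of the next. These intervals hold for 1 gene at a time and do not show that the genes were alike in the groups. The values at the level of TYROBP or under carry a further limit, since RMA compresses differences of dim genes.

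One array weighed on JAK1 and JAK2. Replicate 1 of siChe-1 lay 0.42 below its group mean for JAK1, 0.50 below for JAK2, 0.048 above for TYK2, 0.21 below for STAT3 and 0.19 below for STAT6, and 0.31 above for SOCS3, all on the log2 scale. Without it, the differences were 0.027 ± 0.106 for JAK1, 0.030 ± 0.119 for JAK2, -0.15 ± 0.13 for TYK2, 0.095 ± 0.114 for STAT3, -0.19 ± 0.11 for STAT6 and -0.17 ± 0.12 for SOCS3 (log2, SE, with 2 arrays labelled siChe-1 and 3 labelled control). None of the 8 genes passed in that setting, in which 1565 genes were called over the whole table, nor with any other single array left out. TYK2 and STAT6 kept a negative difference in all 6 such fits, and each of the other 6 genes changed sign in at least 1.

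**Figure D2:**
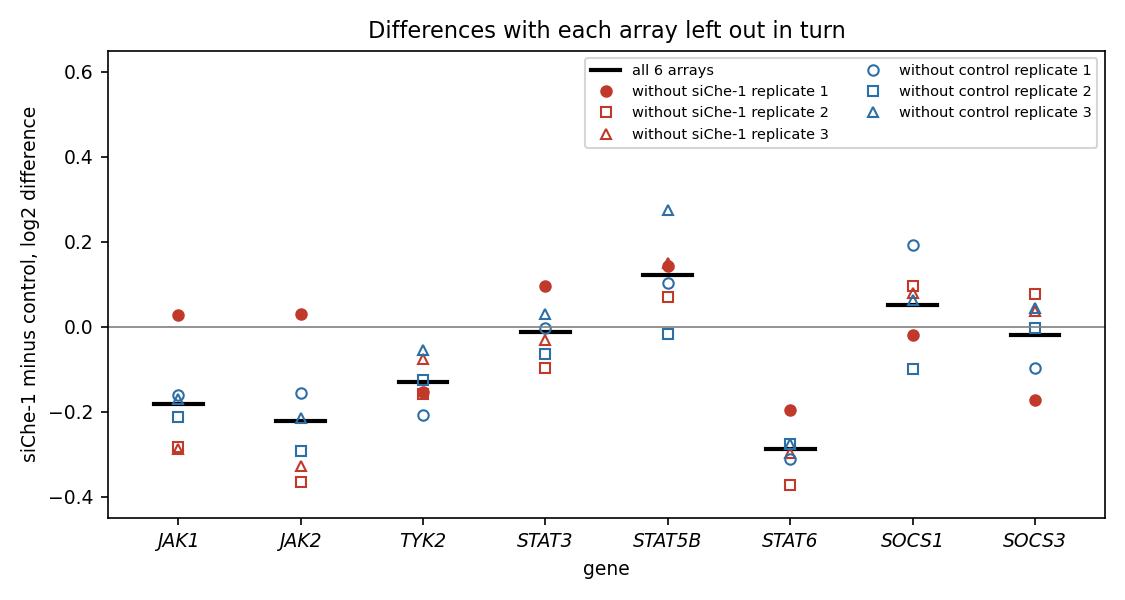
Difference of siChe-1 minus control (y axis, log2) for each of the 8 genes (x axis) with all 6 arrays (black bars) and with each array left out (symbols; the filled red circle is the fit without siChe-1 replicate 1). JAK1 and JAK2 lie at 0.027 and 0.030 without that array, and below 0 in the other fits.

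IRF9, the DNA-binding subunit of ISGF3 and itself induced by interferon, was lower. It read 5.89, 6.36 and 6.03 in the arrays labelled siChe-1, against 7.83, 8.07 and 8.09 in the arrays labelled control. The groups lay far apart, with a difference of -1.91 ± 0.15 (log2, SE, limma adjusted p = 5.24e-05), a measured 3.75-fold. The siChe-1 level was near that of TYROBP, so the size of the fall is uncertain.

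Of the 3 other family members measured, JAK3, the kinase of the common gamma chain in lymphocytes, passed as higher. It read 4.55, 4.59 and 4.44 in the arrays labelled siChe-1, against 3.67, 3.88 and 4.19 in the arrays labelled control, a difference of 0.62 ± 0.15 (log2, SE, limma adjusted p = 0.0498). No JAK3 level was shown to exceed background. The call was lost without siChe-1 replicate 2 or 3 or control replicate 1 or 2, and in 4 other settings. STAT4 (0.16) and STAT5A (0.017, log2 differences) did not pass, and neither is shown to be above background.

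**Figure D3:**
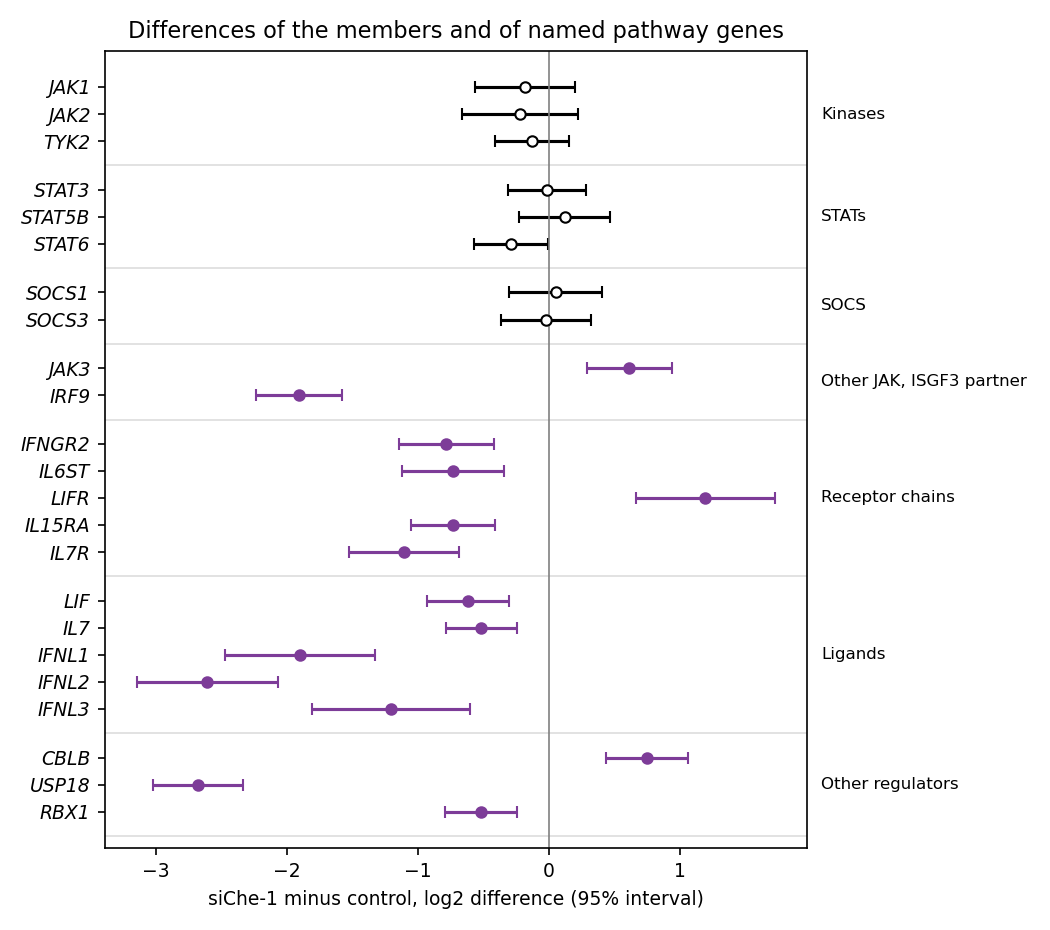
Difference of siChe-1 minus control with its 95% interval (x axis, log2) for the 8 genes (black, open circles, none passed) and for named genes around them (purple, filled circles, all passed), grouped by role (y axis). The intervals of the 8 genes reach or nearly reach 0, and those of USP18, IFNL2, IFNL1 and IRF9 lie farthest below it.

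Of the 6 chains of the interferon receptors, 1 was lower and the other 5 did not pass (median -0.11). The lower one was IFNGR2, the chain of the interferon-gamma receptor that carries JAK2. It read 7.57, 7.04 and 7.06 in the arrays labelled siChe-1, against 8.16, 7.85 and 8.01 in the arrays labelled control, a 1.72-fold difference (limma adjusted p = 0.0295). The groups did not overlap, but the call held only without siChe-1 replicate 1 and was lost when any other single array was left out. IFNAR1 and IFNAR2, the chains of the type I receptor that carry TYK2 and JAK1, differed by -0.19 and 0.014 (log2) and did not pass.

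Among 22 other receptors that work through Janus kinases, 3 were lower, 1 was higher and 18 did not pass (median -0.063). The median level of the list was 4.75 in the arrays labelled siChe-1 and 4.91 in those labelled control. Many of these receptors are therefore not shown to be above background, and a change in them could go unseen. IL6ST, which encodes gp130, read 6.25, 6.88 and 6.80 in the arrays labelled siChe-1, against 7.34, 7.24 and 7.55 in the arrays labelled control, and was 1.66-fold lower (limma adjusted p = 0.0498). LIFR, which pairs with gp130 to bind LIF, moved the other way. It read 5.87, 6.90 and 6.76 in the arrays labelled siChe-1, against 5.10, 5.40 and 5.44 in the arrays labelled control, a measured 2.29-fold difference (limma adjusted p = 0.0238), and its control level is not shown to be above background. IL15RA was 1.66-fold lower, and IL7R was a measured 2.15-fold lower at levels of 2.56 in the arrays labelled siChe-1 and 3.67 in those labelled control. Without siChe-1 replicate 1 there were 6 lower and 1 higher. The count of lower receptors was 2 without siChe-1 replicate 2, 1 without siChe-1 replicate 3 or control replicate 1 or 2, and 0 without control replicate 3, and LIFR did not pass in any of those 5 settings.

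Of 21 ligands, 5 were lower and the other 16 did not pass (median -0.076). The median level of the list was 3.45 in the arrays labelled siChe-1 and 3.62 in those labelled control, so the same limit holds for many ligands. The largest differences were those of type III interferons. IFNL2 read 6.06, 5.02 and 5.40 in the arrays labelled siChe-1, against 7.88, 8.0 and 8.41 in the arrays labelled control, a measured 6.09-fold difference (limma adjusted p = 0.000214). IFNL1 was a measured 3.73-fold lower and IFNL3 2.30-fold lower. IFNL2 and IFNL3 are near-identical copies, so their signals may be shared. LIF, a ligand of the gp130 and LIFR pair, read 7.60, 7.66 and 7.35 in the arrays labelled siChe-1, against 8.10, 8.0 and 8.37 in the arrays labelled control, and was 1.53-fold lower (limma adjusted p = 0.0426). IL7 was a measured 1.43-fold lower at levels of 3.45 and 3.97, and IFNB1 read 2.33 in the arrays labelled siChe-1 and 2.61 in those labelled control and did not pass (adjusted p = 0.340). With any single array other than siChe-1 replicate 1 left out, only 2 ligands were lower, and LIF, IL7 and IFNL3 were not among them.

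Of 18 other negative regulators, 1 was lower, 1 was higher and 16 did not pass (median 0.0058). USP18, which removes ISG15 and holds down the type I receptor, read 5.86, 5.75 and 6.03 in the arrays labelled siChe-1, against 8.27, 8.59 and 8.81 in the arrays labelled control, a measured 6.39-fold difference (limma adjusted p = 5.04e-06). CBLB, a ubiquitin ligase, was a measured 1.68-fold higher, at 5.76 in the arrays labelled siChe-1 and 5.01 in those labelled control (limma adjusted p = 0.0178). CBLB passed without siChe-1 replicate 1, where 3 regulators were higher, and not without any other single array. The other SOCS genes, SOCS2, SOCS4, SOCS5, SOCS6 and SOCS7, and CISH differed by between -0.43 (SOCS2) and 0.22 (SOCS5) on the log2 scale, and none passed. Of the 5 subunits listed for the ubiquitin ligases that SOCS proteins join, 1 was lower and 4 did not pass. The lower one was RBX1, a RING subunit that serves other cullin ligases too, at 1.43-fold (limma adjusted p = 0.0485). RNF7 (-0.15) and CUL5 (0.13, log2 differences) were among the 4. RBX1 passed without siChe-1 replicate 1 and lost its call without any other single array.

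Target genes were listed by the STAT complex that they are known for. All 25 measured ISGF3 targets were lower, beside a background of 2.52% of genes called lower, with a median of -3.59 on the log2 scale. With each array left out in turn, 24 or 25 were lower. The lists were drawn up with earlier results of these data known, so setting this count beside the background is not a test. IFI44 was a measured 46.7-fold lower, IFIT2 a measured 41.0-fold lower and IFI6 a measured 32.7-fold lower. IFIT1, whose promoter is printed above, read 6.73, 6.86 and 6.76 in the arrays labelled siChe-1. It read 11.89, 11.77 and 11.58 in the arrays labelled control, a measured 31.2-fold difference (limma adjusted p = 1.74e-08). Of 17 genes that interferon-gamma drives through GAS elements, 7 were lower and the other 10 did not pass (median -0.16). Among those 10, only HLA-DMA and WARS1 averaged more than TYROBP in both groups. The brightest of the rest, CIITA, averaged 4.47 in the arrays labelled siChe-1 and 4.37 in those labelled control. For genes that dim a fall could go unseen, and the count of 10 does not show that they were unchanged. PSMB9, an immunoproteasome subunit, was a measured 7.74-fold lower, with a siChe-1 level of 5.68 that is not shown to be above background. TAP1, a peptide transporter, was 3.44-fold lower. CXCL10 and CXCL11, T-cell chemokines, were a measured 3.35-fold and 2.98-fold lower at levels not shown to be above background. Some of these genes also respond to type I interferon and to NF-kB.

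The remaining target lists belong to STAT3, STAT5 and STAT6. Of 19 STAT3 targets, 1 was lower and the other 18 did not pass (median -0.050). The lower one was MYC, which read 10.59, 10.41 and 10.25 in the arrays labelled siChe-1, against 10.99, 10.87 and 11.06 in the arrays labelled control, a 1.47-fold difference (limma adjusted p = 0.0464). Without siChe-1 replicate 1 there were 4 lower STAT3 targets, and without any other single array there were 0. The STAT3 targets A2M, FGB, FGG, LRG1 and MUC1 averaged less than TYROBP in both groups, and a fall in them could go unseen. Of 11 STAT5 targets, BCL6, a transcriptional repressor, was 1.53-fold higher (limma adjusted p = 0.0229) and 10 did not pass (median 0.038). BCL6 lost its call without siChe-1 replicate 3 or any single control array, and without siChe-1 replicate 1 there was also 1 lower STAT5 target. Of the STAT5 list, CCND2, CISH, IGF1 and OSM were as dim, with the same limit. None of 11 STAT6 targets passed by limma (median 0.027, none at an unadjusted p under 0.05), with TGM2 nearest at 0.29 (adjusted p = 0.316) and IL13RA2 at -0.22 (adjusted p = 0.411, both log2 differences). The brightest of the 11 averaged 5.99 in the arrays labelled siChe-1 and 5.70 in those labelled control. None of the 11 is therefore shown to be above background, and their counts do not show that STAT6 output was unchanged. BCL2L1, CCND1 and PIM1 are in both the STAT3 and the STAT5 list, and CISH is in both the STAT5 and the STAT6 list.

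**Figure D4:**
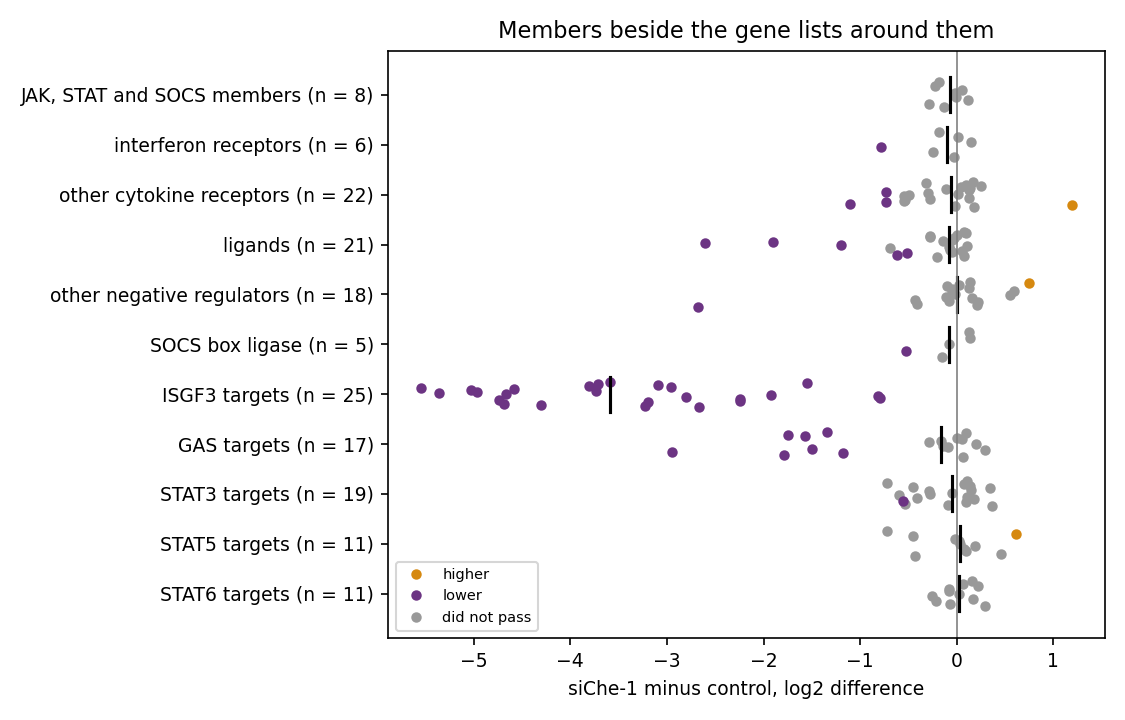
Difference of siChe-1 minus control (x axis, log2) for each gene of the 8 measured members and of the lists around them (y axis, with the number measured), coloured by the test, with black bars for list medians. The 25 ISGF3 targets all lie below 0 and pass, while the 8 JAK, STAT and SOCS genes lie between -0.29 and 0.12.

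Markers of other cell types were set beside these results. Of 13 leukocyte markers CD68 was lower (6.68 in the arrays labelled siChe-1 and 8.23 in those labelled control) and 12 did not pass. Of the 13, only 3 had a difference below 0 (median 0.12, log2). CD14, CD3D, CD79A and TYROBP lay higher in the arrays labelled siChe-1 without overlap, as did 10.6% of all genes. The leukocyte list's intensities, summed on the linear scale, came to 307 to 364 in the arrays labelled siChe-1 and 454 to 541 in those labelled control, a sum in which CD68 is the brightest gene of the list. The fibroblast list summed to 327 to 371 and 318 to 351, with none of 10 markers past the test by limma, and the endothelial list to 89.5 to 103 and 84.7 to 91.8, with none of 6. The epithelial list summed to 10967 to 11689 and 14644 to 14876, KRT19 being lower and ELF3 higher among its 11 genes. Such a sum weighs the brightest genes most: the median difference of the epithelial list was -0.0041 (log2). In that list 3 genes were lower and 3 higher without overlap, beside 13.3% and 10.6% of all genes. Whether any of these moved the pathway genes was not tested.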

How the data were processed

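The authors deposited log2 intensities of 6 single-colour Affymetrix whole-transcript arrays, which per the submitters' processing notes came from RMA and Affymetrix Expression Console; versions, RMA settings and genome build are not given in the sources used here. Per the labels' protocols, total RNA was extracted with Trizol and 6 micrograms were labelled per array. Of 33297 probe sets, 19460 had 1 gene symbol, 1754 several and 12083 none listed. The probe set with the highest mean stood for a gene, and 18417 genes were tested. There were 0 columns of other samples. The difference, siChe-1 minus control, was fitted by limma 3.58.1 under R 4.3.3 (lmFit, eBayes, no covariate, no filter), with Benjamini-Hochberg adjustment over all genes. The fit was tested on simulated data. Errors are SDs over 3 arrays or moderated SEs.

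The members and lists were chosen with earlier results of these data known. Named were all members, AATF, IRF9 and, per list, the called genes (the 4 largest above 5, the 2 with the smallest p where none passed). Others (STAT4, STAT5A, IFNAR1, IFNAR2, IFNB1, the other SOCS genes, CISH, RNF7, CUL5, cell type markers and genes named for their level) were named after their values were seen. The rule also asked for the genes most like each called member, and no member was called. Alternatives were other normalizations, a filter on dim genes, testing every row, averaging probe sets, array weights, a trended and robust prior, a block for the replicate number, a stricter threshold and leaving out each array. Promoter windows came from RefSeq (GRCh38.p14). Scanner files were not used here.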

Additional observations from a re-analysis of the deposited data

How the results depend on the processing

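None of the 8 measured genes passed under any alternative, and the counts of them called lower and higher were 0 and 0 in every setting; STAT2 could not be recomputed. STAT3 changed sign with a further quantile normalization (0.0086) and with array weights (0.045), and SOCS1 with array medians centred (-0.012) and with array weights (-0.032), none past the threshold. With each array left out in turn, the log2 difference ranged from -0.29 to 0.027 for JAK1, -0.37 to 0.030 for JAK2, -0.21 to -0.054 for TYK2, -0.098 to 0.095 for STAT3, -0.017 to 0.28 for STAT5B, -0.37 to -0.19 for STAT6, -0.10 to 0.19 for SOCS1 and -0.17 to 0.078 for SOCS3. AATF, for which the same alternatives were added after the data were seen, stayed between 1.05 and 1.23. Over all genes, the calls (465 lower and 220 higher) moved to 307 and 101 with every row tested, 1517 and 1348 with array weights (siChe-1 replicate 1 had a weight of 0.22), and 197 and 64 at an adjusted p under 0.01; with each array left out they ranged from 199 to 826 lower and from 63 to 739 higher. With the replicate number as a block they were 729 and 416, and STAT6 stayed at -0.29 (limma adjusted p = 0.277). Deviations of same-numbered arrays correlated at 0.23, 0.064 and -0.045, and those of different-numbered arrays at between -0.23 and 0.16. The numbers were not taken as pairs because the labels do not say that they pair the cultures. Among the named genes, the alternatives other than leaving out arrays ended calls of BCL6, CBLB, IFNGR2, IFNL3, IL15RA, IL6ST, IL7, IL7R, JAK3, LIF, LIFR, MYC and RBX1, each when every row was tested, and those of IRF9, USP18, IFNL1, IFNL2 and IFIT1 held throughout. The causes were not tested. Signal over background is not known, which limits JAK2, STAT5B, SOCS1 and SOCS3 most.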
